A study of Homo sapiens with 6 samples.

Results

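The small nucleolar RNAs (snoRNAs) and the small Cajal body RNAs of MDA-MB-231 cells were followed here across both miRNA transfections. The members are the genes whose array probes map to a symbol that begins with SNORA, SNORD or SCARNA, which gave 315 of the 21743 genes with a symbol on the array. They comprise 100 SNORA, 193 SNORD and 22 SCARNA genes, covered by 321 probes. The MDA-MB-231 line comes from a human breast cancer that lacks the estrogen and progesterone receptors. Cells were reverse transfected with a precursor of hsa-miR-205-5p, with that of hsa-miR-214-3p or with a scrambled negative control, and total RNA was taken after 72 h. Each group has 2 samples, each hybridized in 1 colour to an Agilent array of its own, and a single slide held the 6 arrays. The labels do not say whether the 2 samples of a group came from separate cultures, so the p-values measure only the spread between these samples, which may be technical. The study transfected these precursors to find genes that respond to either miRNA in breast cancer cells.

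SnoRNAs are short nuclear RNAs that guide chemical changes in other RNAs by base pairing. Box H/ACA RNAs, named SNORA, guide the change of uridine to pseudouridine in ribosomal RNA, while box C/D RNAs, named SNORD, guide ribose methylation. Small Cajal body RNAs, named SCARNA, carry box H/ACA or C/D elements or both, collect in the Cajal body, and guide the same changes in spliceosomal RNAs. Most human members lie in introns of longer genes, such as those of ribosomal proteins, and are released when the excised intron is trimmed. A snoRNA can therefore differ in abundance from the messenger RNA of the gene that contains it.

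The mature sequences that the transfected precursors stand for differ in their seeds, the bases 2 to 8 from the 5′ end that pair with targets. They are given 5′ to 3′ from RefSeq (GRCh38.p14), with the seed in capitals, since these are the agents that separate the groups. The hsa-miR-205-5p sequence lies at chr1:209432166-209432187 on the plus strand, and that of hsa-miR-214-3p at chr1:172138816-172138837 on the minus strand.
hsa-miR-205-5p: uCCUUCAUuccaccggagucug
hsa-miR-214-3p: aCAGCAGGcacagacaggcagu

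Signals are given as the log2 of the background-subtracted spot signal minus the array's 75th percentile. A value of 0 therefore lies at the 75th percentile of all probes on that array. The scanner software marks a spot as well above background when it exceeds the local background by a set margin. A probe was tested when both arrays of 1 group or more marked it as well above background, and a gene was represented by its tested probe of highest mean signal. Of the 315 members, 187 were tested, which were 18 SCARNA, 85 SNORA and 84 SNORD genes. Of the members, 149 were well above background on all 6 arrays and 112 on none. The other 16 were so marked on at least 1 array without passing the filter. The filter keeps a probe that is bright in only 1 group, so the tested genes do not stand for all members.

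The share of members above background differed by class more than by group. Between 17 and 19 of the 22 SCARNA genes and between 75 and 85 of the 100 SNORA genes were well above background on an array. Of the 193 SNORD genes the number was 73 and 63 on the hsa-miR-205-5p arrays, 83 and 78 on the hsa-miR-214-3p arrays and 83 and 89 on the control arrays. Over all 58717 spots the hsa-miR-205-5p arrays also had the fewest well above background (22199 and 20813) and the control arrays the most (23882 and 24759). Much of the gap between the classes came from the imprinted C/D clusters, which are known for expression in brain and placenta. None of the 37 SNORD113 and SNORD114 genes, the 12 SNORD115 genes or the 11 SNORD116 genes passed the filter. No probe of SNORD115 or SNORD116 was well above background on any array, and 3 probes of SNORD113 and SNORD114 were so on 1 array each.

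**Figure D1:**
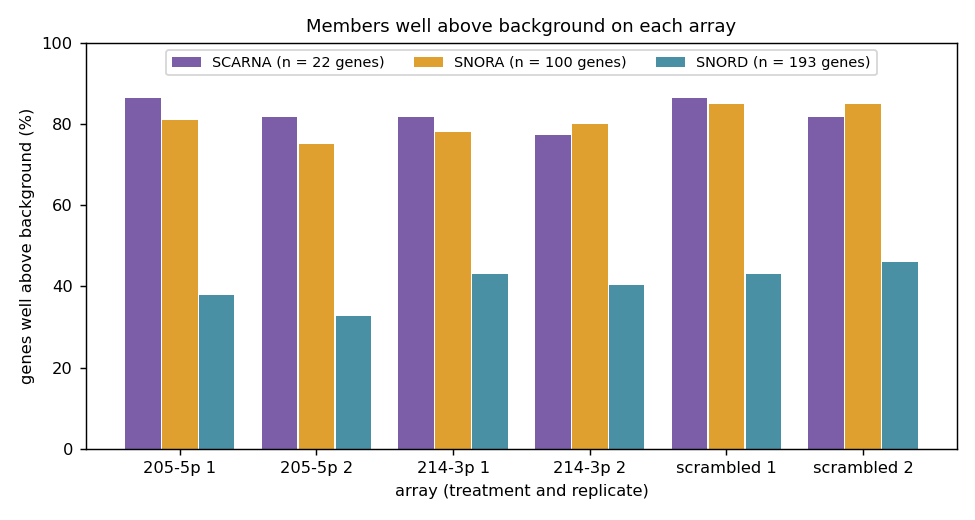
Share of member genes well above background on each of the 6 arrays, in percent on the y axis, with 1 bar per class. SCARNA and SNORA genes lie between 75% and 86.4% on every array, and SNORD genes between 32.6% and 46.1%.

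The labelling kit primes from poly(A) tails, which mature snoRNAs lack. Whether a probe read the mature RNA, an unprocessed intron or a longer transcript was not tested, and the values below are probe signals. As these are bulk samples, fewer cells with an RNA and less of it per cell cannot be told apart. Of 58717 spots, 22199 and 20813 were well above background on the hsa-miR-205-5p arrays. The numbers were 23186 and 22612 with hsa-miR-214-3p and 23882 and 24759 on the control arrays. The 75th percentile was 41.7 and 35.1, 48.4 and 36.6, and 50.3 and 58.0 in the same order of groups, with 0 saturated spots. The mesenchymal genes VIM, CD44 and ZEB1 were well above background on all 6 arrays, and no probe of the receptor genes ESR1 and PGR was so on any. The epithelial genes CDH1 and EPCAM were above background on all 6 arrays. Both rose with hsa-miR-205-5p, by 1.96 and 2.40 on the log2 scale. Of the markers of other cell types, the leukocyte gene PTPRC was above background on 2 arrays and the endothelial gene PECAM1 on 3. The PECAM1 signal was called lower on the hsa-miR-205-5p arrays, with the control at least 2.25-fold higher. The part of these shifts in the member values was not tested.

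With hsa-miR-205-5p, 23 of the 187 tested members were called below the scrambled control and 0 above it. A call needed an adjusted p under 0.05 by limma, with Benjamini-Hochberg adjustment over all tested probes, together with a 2-fold difference or more. The 23 are 12.3% of the members, against 7.98% of all 11974 tested genes called lower and 4.78% called higher. They comprise 11 of 85 SNORA, 7 of 84 SNORD and 5 of 18 SCARNA genes, with adjusted p between 0.0080 and 0.0387. Of the SNORA genes, 7 are SNORA70 and its copies, which the probes may not tell apart and which may not be separate observations. The median log2 difference was −0.17 over the members and 0.08 over all genes. At an unadjusted p under 0.05 by limma, 33 members were lower and 1 higher by 2-fold or more. Of all genes, 1200 (10%) were then lower and 683 (5.7%) higher. With no fold limit 59 members were lower and 18 higher, where the share over all genes was not counted. Leaving out either control array, which leaves 1 in that group, brought some higher calls among the members. Without hsa-miR-205-5p replicate 2, which leaves that group with 1 array, no call was left over the members or over all genes. The median was then −0.13 over the members and 0.13 over all genes. Over 13 alternatives that refit the values, SNORA6, SNORD18C and SNORD91A lost their call in 8 and SCARNA11 and SNORA52 in 7. SNORA68, SNORD34, SNORD35B and 5 of the SNORA70 family lost theirs in 1.

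With hsa-miR-214-3p, 11 members were called lower than in the control and 0 higher. They are 5.88% of the tested members, against 2.03% of all genes called lower and 1.09% called higher. Of the 11, 9 were SCARNA genes, out of the 18 tested, and the others were SNORA11D and SNORA30. No SNORD gene was called by limma, while 9 were lower and 2 higher at an unadjusted p under 0.05 with no fold limit. Over all members, 44 were then lower and 5 higher, where the share over all genes was not counted. With the 2-fold limit the numbers were 18 and 0, beside 495 (4.13%) and 319 (2.66%) of all genes. The median log2 difference was −1.28 over the 18 SCARNA genes, of which 17 lay below 0, −0.19 over the SNORA genes, −0.07 over the SNORD genes and −0.01 over all genes. These calls depend on the arrays fitted together. With only the 4 arrays of the comparison, 0 members and 0 of all 11974 genes were called at the adjusted threshold. In that fit 18 members were lower at the unadjusted threshold with the 2-fold limit, where the share over all genes was not counted. Leaving out 1 array leaves a group with 1, and most such fits had no call left, over the members or over all genes. Without scrambled control replicate 2 the calls went both ways, over the members and over all genes. When 1 array was left out, the member median lay between −0.21 and −0.14, beside −0.07 to 0.01 over all genes.

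Set directly against hsa-miR-214-3p, hsa-miR-205-5p gave 22 members called lower and 15 higher. These are 11.8% and 8.02% of the tested members, against 11.3% and 9.18% of all genes. The classes split in this comparison. None of the 18 SCARNA genes was lower and 7 were higher, while 11 SNORD genes were lower and 2 higher, and 11 SNORA genes were lower and 6 higher. Leaving out any 1 array of either precursor leaves that group with 1. In each such fit fewer members were called, and fewer of all genes too. The member median then lay between 0.09 and 0.22, beside 0.09 to 0.16 over all genes. Normexp background correction gave 14 lower and 2 higher, beside 5.4% and 3.48% of all genes.

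**Figure D2:**
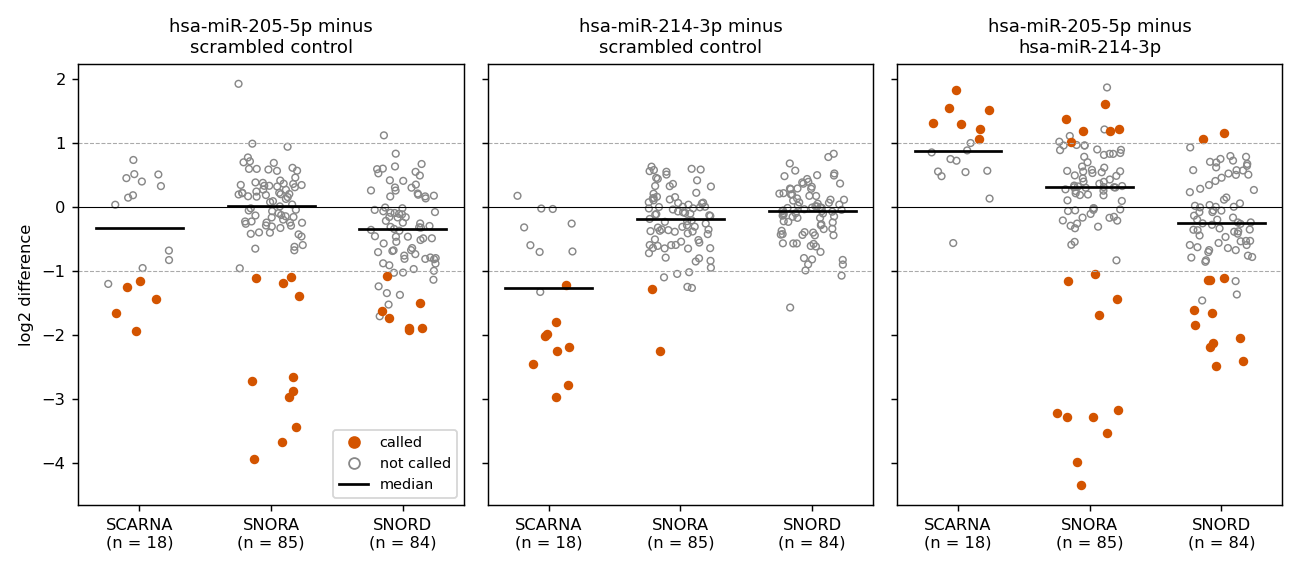
Log2 difference of each tested member (y axis) in the 3 comparisons, split by class; filled points were called by limma, the bar is the class median and dashed lines mark 2-fold. SCARNA genes sit lowest with hsa-miR-214-3p (median −1.28), and the 7 points furthest below 0 in the SNORA column of the left and right panels are the SNORA70 family.

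Among the Cajal body RNAs, SCARNA13 showed the largest difference between hsa-miR-214-3p and the control, a place that SCARNA14 took with normexp background correction (by 1.88 against 1.30). SCARNA8 led narrowly in at least 1 other refit, where it reached −3.031, while SCARNA13 went no lower than −3.027 in any. The SCARNA13 signal was 1.61 and 1.51 on the control arrays, −0.15 and −0.07 with hsa-miR-205-5p, and −1.46 and −1.38 with hsa-miR-214-3p. The 3 groups did not overlap, with the control highest and hsa-miR-214-3p lowest. SCARNA13 fell by 2.98 ± 0.15 on the log2 scale (SE; 7.87-fold) with hsa-miR-214-3p (limma, adjusted p = 0.0251) and by 1.67 ± 0.15 (3.18-fold) with hsa-miR-205-5p (adjusted p = 0.0080). Its level with hsa-miR-205-5p was 2.48-fold above that with hsa-miR-214-3p (adjusted p = 0.0053). With normexp the difference from the control with hsa-miR-205-5p was −0.97, short of 2-fold, and that between the precursors was 0.33 and no longer passed (limma, adjusted p = 0.102). SCARNA13 lies in SNHG10, a long noncoding host gene whose probe was well above background on no array.

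SCARNA8 had the same order of groups. Its signal was 1.48 and 1.00 on the control arrays, −0.71 and −0.70 with hsa-miR-205-5p, and −1.72 and −1.39 with hsa-miR-214-3p. It fell by 1.95 ± 0.23 with hsa-miR-205-5p (adjusted p = 0.0092) and by 2.79 ± 0.23 with hsa-miR-214-3p (limma, adjusted p = 0.0251), where normexp gave −0.99 and −1.26. The 2 precursors differed by 0.85 ± 0.23, which is 1.80-fold and short of the 2-fold limit (adjusted p = 0.0406). The gene that contains it, HAUS6, which encodes a subunit of the augmin complex of the mitotic spindle, gave log2 differences of 0.87 and 1.01 and was not called in either comparison.

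SCARNA11, SCARNA16 and SCARNA23 were also called lower with each precursor. SCARNA11 lay at 2.73 and 2.39 in the control, 1.58 and 1.22 with hsa-miR-205-5p, and 0.02 and 0.19 with hsa-miR-214-3p. Its log2 differences from the control were −1.16 and −2.45. SCARNA16 gave −1.26 and −2.25 and SCARNA23 −1.44 and −1.99, in the same order of precursors. With normexp SCARNA11 read −0.98 and −1.60 and SCARNA23 −0.51 and −0.73, of which 1 value is past 2-fold. A second probe of SCARNA16 was called lower in both comparisons too, and also differed between the precursors. The comparisons of the 2 precursors with the control use the same control arrays.

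SCARNA9, SCARNA14, SCARNA18 and SCARNA20 were called lower with hsa-miR-214-3p and not with hsa-miR-205-5p, and in each the 2 precursors differed directly. SCARNA18 lay at 2.61 and 2.34 in the control, 2.80 and 2.79 with hsa-miR-205-5p, and 1.27 and 1.25 with hsa-miR-214-3p. Only the hsa-miR-214-3p arrays were low, and the direct difference was 1.54 ± 0.17 (adjusted p = 0.0049). SCARNA9 was at 2.47 and 1.91, 2.55 and 1.89, and 0.46 and 0.33 in the same order of groups. Its hsa-miR-205-5p and control values overlapped, with a direct difference of 1.83 ± 0.30 (adjusted p = 0.0114). SCARNA14 and SCARNA20 had intermediate values with hsa-miR-205-5p. SCARNA14 fell by 2.20 with hsa-miR-214-3p against a difference of −0.69 with hsa-miR-205-5p, and the corresponding values of SCARNA20 were 2.02 and −0.96. SCARNA17 was called in the direct comparison (1.22 ± 0.20, adjusted p = 0.0112) and not against the control. With normexp the direct differences of SCARNA17, SCARNA18 and SCARNA20 were 0.80, 0.89 and 0.70, short of 2-fold. Those of SCARNA9 and SCARNA14 were 1.08 and 1.00 and stayed called.

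The other 8 tested SCARNA genes were called in no comparison. SCARNA22, which lies in the histone methyltransferase gene NSD2, differed by −1.21 and −1.33 from the control and missed the adjusted threshold (limma, adjusted p = 0.0634 and 0.106, unadjusted p = 0.0146 and 0.00970). Its signal was 7.20 and 6.70 in the control, 6.18 and 5.30 with hsa-miR-205-5p, and 5.69 and 5.54 with hsa-miR-214-3p. The groups with a precursor lay below both control arrays and overlapped each other. The remaining genes were SCARNA2, SCARNA3, SCARNA4, SCARNA5, SCARNA7, SCARNA9L and SCARNA12, with log2 differences between −0.84 and 0.73 for hsa-miR-205-5p and between −0.70 and 0.17 for hsa-miR-214-3p.

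**Figure D3:**
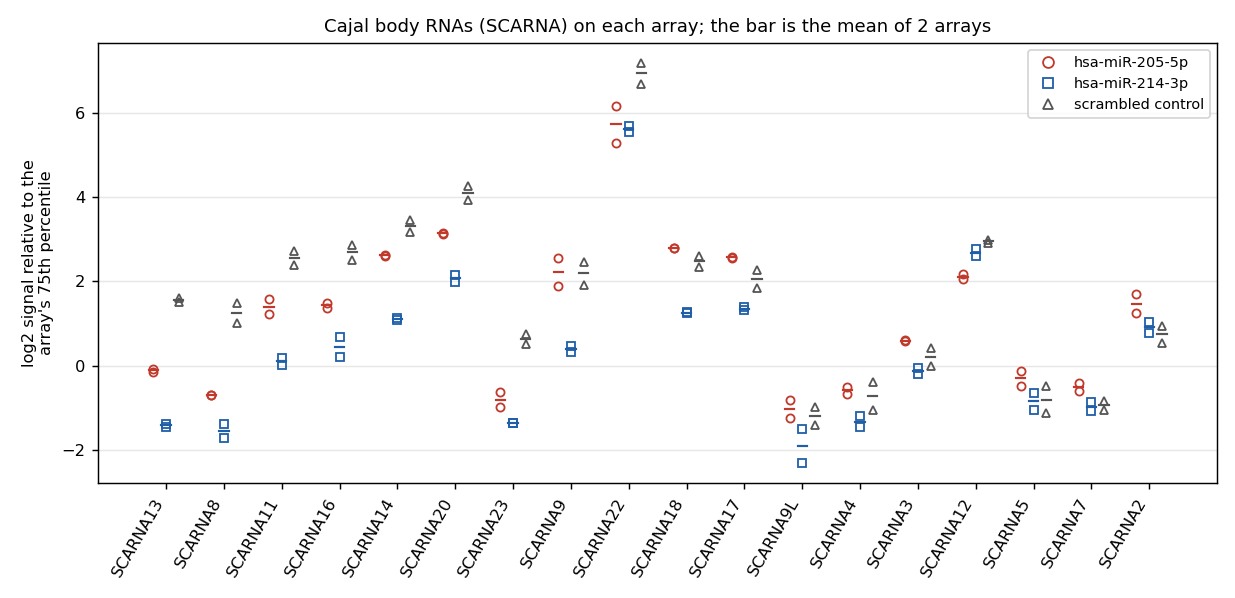
Normalized log2 signal of the 18 tested SCARNA genes on each array, ordered by the difference between hsa-miR-214-3p and the control; points are arrays and bars are means of 2 arrays. From SCARNA13 to SCARNA23 both precursors lie below the control, while for SCARNA18 only the hsa-miR-214-3p arrays lie below both control arrays.

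In the H/ACA class the SNORA70 family stood out with hsa-miR-205-5p. SNORA70 guides pseudouridylation of ribosomal RNA, and the other family members are copies of it at other places in the genome. All 7 family members on the array (SNORA70 and SNORA70B to SNORA70G) were called lower with hsa-miR-205-5p than in the control. Their fitted adjusted p lay between 0.0080 and 0.0225. SNORA70, SNORA70B, SNORA70E and SNORA70G were well above background on all 6 arrays, with log2 differences between −3.45 and −2.66. With hsa-miR-214-3p the differences of all 7 lay between 0.10 and 0.62 and none was called (adjusted p 0.283 to 0.885). Set against each other, the precursors differed by −3.55 to −3.23 in these 4, and again all 7 were called.

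SNORA70 itself had a signal of 1.68 and 1.63 with hsa-miR-205-5p, 4.90 and 4.98 with hsa-miR-214-3p, and 3.83 and 4.80 in the control. The hsa-miR-205-5p arrays lay below all others, and the hsa-miR-214-3p arrays lay above both control arrays. SNORA70 fell by 2.66 ± 0.33 with hsa-miR-205-5p (6.33-fold, adjusted p = 0.0104). SNORA70B was at −1.39 and −1.11 with hsa-miR-205-5p, 2.48 and 2.12 with hsa-miR-214-3p, and 1.78 and 2.62 in the control. It fell by 3.45 ± 0.33 (10.9-fold, adjusted p = 0.0080), and its hsa-miR-214-3p and control values overlapped. Normexp background correction gave smaller falls for the 4, of 2.45 for SNORA70, 1.82 for SNORA70B, 2.26 for SNORA70E and 1.37 for SNORA70G. SNORA70E (−2.97 ± 0.31) and SNORA70G (−2.88 ± 0.27) behaved alike in that both hsa-miR-205-5p arrays lay below the other 4.

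The dimmer copies were not all measured with hsa-miR-205-5p. SNORA70C was well above background on neither array of that group and lay at 0.95 and 1.74 in the control, which puts the control at least 7.78-fold higher (fitted adjusted p = 0.0080). SNORA70F was likewise at background with hsa-miR-205-5p, with the control at least 1.74-fold higher (adjusted p = 0.0080). These bounds set the mean of the brighter group against the lowest signal that counted as well above background on the arrays of the dimmer group. With normexp SNORA70C read −1.06 and stayed called, and SNORA70F read −0.31 and did not (limma, adjusted p = 0.0212 and 0.123). SNORA70D was above background on only 1 hsa-miR-205-5p array, at −1.29, and read −3.52 on the other. As the copies are close in sequence, a probe may read more than 1 of them, so the 7 genes may not be 7 separate observations.

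None of the tested genes around the copies was called lower than in the control. SNORA70 lies in RPL10, a ribosomal protein gene that had no tested probe. SNORA70B lies in USP34 (log2 difference with hsa-miR-205-5p −0.99 ± 0.79), SNORA70C in ASTN2 (0.28), SNORA70D in PHLPP2 (−0.68) and SNORA70E in RAB30 (−0.70), and none of these was called against the control. USP34 was at 0.01 and 2.56 on the control arrays, and both hsa-miR-205-5p arrays (0.42 and 0.16) lay between them. Between the precursors RAB30 passed the test, with hsa-miR-205-5p lower by 1.39 (adjusted p = 0.0126). COBLL1 and RAP1B, a small GTPase of the Ras family, contain SNORA70F and SNORA70G and were called higher, by 1.04 and 1.37. A second probe of PHLPP2 read 0.65 and was not called.

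In 4 further H/ACA RNAs the signal fell with hsa-miR-205-5p. SNORA68 was at 0.61 and 0.44 with hsa-miR-205-5p, 2.06 and 1.87 with hsa-miR-214-3p, and 1.97 and 1.87 in the control. It fell by 1.39 ± 0.17 (2.62-fold, adjusted p = 0.0098), and its values on the other 4 arrays lay between 1.87 and 2.06. SNORA67, in EIF4A1, the gene of a translation initiation helicase, fell by 1.19, SNORA52 in RPLP2 by 1.12 and SNORA6 in RPSA by 1.10. All 4 were also called lower than with hsa-miR-214-3p.

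With hsa-miR-214-3p, SNORA11D fell by 1.29 ± 0.18 (adjusted p = 0.0381). It was at 1.91 and 1.88 in the control, 1.36 and 1.23 with hsa-miR-205-5p, and 0.43 and 0.78 with hsa-miR-214-3p. SNORA30 was well above background on neither hsa-miR-214-3p array, and the control was at least 1.78-fold higher (fitted adjusted p = 0.0444). It kept this call in 2 of the 13 alternatives that refit the values. In the direct comparison SNORA5A, SNORA5B, SNORA11C, SNORA15, SNORA18 and SNORA30 were higher with hsa-miR-205-5p. SNORA5A and SNORA5B lie in TBRG4, a gene of mitochondrial RNA metabolism. They read 1.19 and 1.37 higher with hsa-miR-205-5p than with hsa-miR-214-3p, while TBRG4 itself differed by −0.03.

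The C/D RNAs called lower with hsa-miR-205-5p were SNORD11B, SNORD18C, SNORD34, SNORD35A, SNORD35B, SNORD56 and SNORD91A. SNORD35B was at 1.71 and 1.73 with hsa-miR-205-5p, 3.84 and 3.88 with hsa-miR-214-3p, and 3.43 and 3.88 in the control. It fell by 1.93 ± 0.20 (3.82-fold, adjusted p = 0.0085), and its hsa-miR-205-5p arrays lay well below the other 4. SNORD34 was at 1.32 and 0.92, 2.75 and 2.81, and 3.02 and 3.02, and fell by 1.90 ± 0.19 (3.73-fold, adjusted p = 0.0083). SNORD35A fell by 1.51 ± 0.23 (adjusted p = 0.0153). Each of the 7 was also called lower than with hsa-miR-214-3p, and the 4 that were above background on all 6 arrays differed by between 1.61 for SNORD35A and 2.19 for SNORD56. SNORD11B and SNORD91A were well above background on 1 hsa-miR-205-5p array each.

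SNORD18C was well above background on neither hsa-miR-205-5p array, and the control was at least 1.52-fold higher (fitted adjusted p = 0.0387). With normexp SNORD18C read −0.29 and was not called (limma, adjusted p = 0.193). Leaving out either control array moved its fitted fold by over 1.5 times. SNORD4A, SNORD4B, SNORD36A and SNORD86 were called only between the precursors. SNORD4A was at −0.12 and 0.04 with hsa-miR-205-5p, 2.50 and 2.40 with hsa-miR-214-3p, and 0.90 and 2.44 in the control. The control arrays were far apart, and the difference of −1.71 ± 0.49 between hsa-miR-205-5p and the control did not pass (adjusted p = 0.0651). SNORD86 had the same layout, with 4.36 on control replicate 1 and 5.58 on replicate 2. Over the 187 tested members, the 2 control arrays differed by more than 2-fold in 12, against 9 for hsa-miR-205-5p and 2 for hsa-miR-214-3p. In 9 of those 12, control replicate 1 was the lower.

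**Figure D4:**
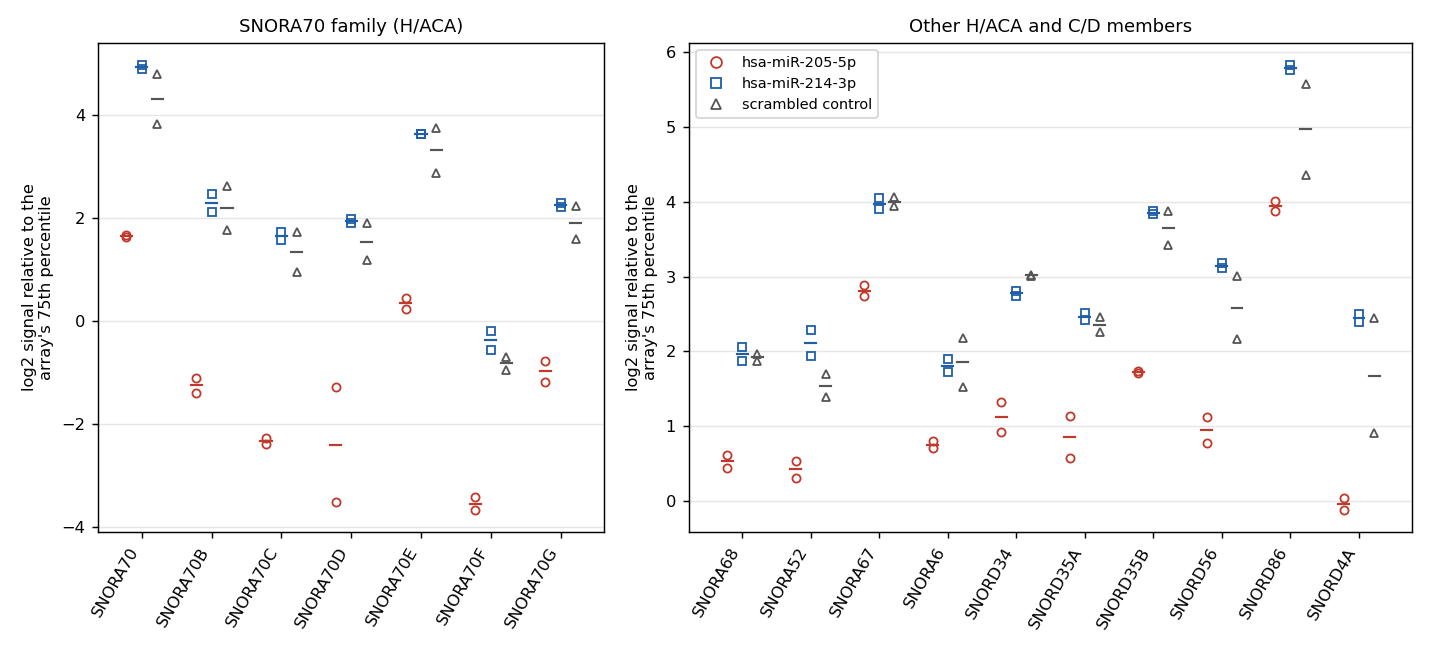
Normalized log2 signal on each array of the SNORA70 family (left) and of 10 other H/ACA and C/D RNAs (right); points are arrays and bars are means of 2 arrays. Both hsa-miR-205-5p arrays lie below the 4 others for every gene drawn, and control replicate 1 lies below replicate 2 by 1.22 for SNORD86 and 1.54 for SNORD4A.

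Members in the same host gene were set side by side, and the differences between them were not tested. RPL13A, a ribosomal protein gene, holds 4 tested C/D members. SNORD34 and SNORD35A fell with hsa-miR-205-5p by 1.90 and 1.51, while SNORD32A and SNORD33 gave −0.47 and −0.33 and were not called. NOP56, which encodes a core protein of C/D particles, holds 4. SNORD56 fell by 1.63, SNORD86 read −1.03, SNORD110 −0.22 and SNORA51 0.33, and SNORD56 and SNORD86 were lower than with hsa-miR-214-3p. The 3 tested RNAs of RPL23A (SNORD4A, SNORD4B and SNORD42B) read between −1.71 and −1.14 and none was called against the control, though SNORD4A and SNORD4B were lower than with hsa-miR-214-3p. For SNORD4B and SNORD42B, hsa-miR-205-5p replicate 2 was not well above background. Of the 4 RNAs of RPL4, SNORD18C was called, while SNORD18B read −1.38, SNORD18A −0.98 and SNORD16 −0.10.

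Other large clusters showed no call against the control. The 7 tested members in SNHG1 lay between −1.53 (SNORD29, above background on 1 array of that group) and 0.58 with hsa-miR-205-5p and between −1.08 and 0.17 with hsa-miR-214-3p. The 7 in TAF1D, a subunit gene of the RNA polymerase I selectivity factor, lay between −0.30 and 0.34 and between −1.27 and −0.13. Of these, SNORA18 differed between the precursors by 1.00 (adjusted p = 0.0416), a call kept in 4 of the 13 alternatives. The 4 in SNHG17, which are the SNORA71 copies A to D, lay between 0.21 and 0.61 with hsa-miR-205-5p. The 4 in GAS5 lay between −0.92 and −0.09.

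Grouped by host, a split made after the values were seen and given as a description, 44 tested members lie in ribosomal protein genes. With hsa-miR-205-5p 8 of the 44 were called lower, beside 7.98% of all genes, with a median of −0.48, and 34 lay below 0. With hsa-miR-214-3p 0 of the 44 were called by limma, beside 2.03% of all genes, and the median was −0.07. Among the other 143 members the counts were 15 and 11 lower, with medians of −0.07 and −0.19. The 21 tested ribosomal protein genes themselves had medians of 0.17 and 0.03. At the probe of highest signal, only RPS3 was called against the control, lower with hsa-miR-205-5p by 2.90. Its member SNORD15B was not called against the control. A dimmer probe of RPL13A was also called lower with hsa-miR-205-5p, by 1.46.

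Of the 23 members called lower with hsa-miR-205-5p, 20 lie in a gene with a tested probe. At the probe of highest signal, every such gene differed by under 2-fold for 16 of the 20, and for 2 a containing gene was called lower too. These were NOP56, which fell by 2.73 and contains SNORD56, and CHD4, a chromatin remodelling ATPase gene that fell by 1.67 and contains SCARNA11. With hsa-miR-214-3p, 9 of the 11 lower members have a tested containing gene, and 0 of these genes was called lower. CHD4 then read 0.42 above the control while SCARNA11 fell by 2.45. Over the whole class 311 of the 315 members lie within another gene of the RefSeq table by their span, with strand not compared.

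Several containing genes are read by more than 1 probe, and the probes disagreed. NOP56 fell by 2.73 at the probe of highest signal, whereas its other 2 probes read 0.58 and 0.70 above the control and were not called. RPL13A read −0.17 and −0.76 at 2 probes and was called lower by 1.46 at another. SNHG20, which contains SCARNA16, read 0.58 at its main probe and −1.42 and −1.41 at 2 dimmer ones, and none of the 3 was called. The RAP1B probes were close, at 1.37 and 1.08. Statements on a containing gene thus hold for the probe named.

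**Figure D5:**
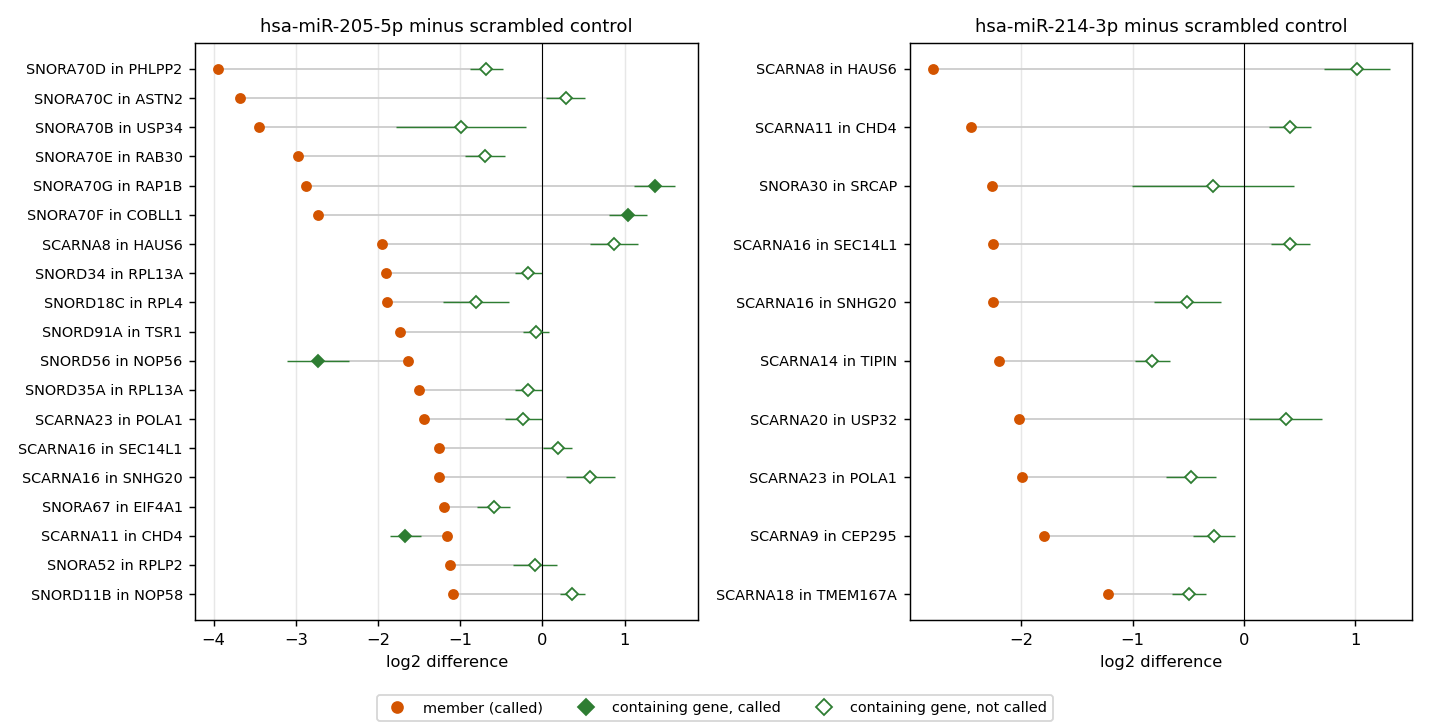
Log2 difference from the scrambled control of called members (circle) and of the tested gene that contains each (diamond, bars are SE), for hsa-miR-205-5p (left) and hsa-miR-214-3p (right). All diamonds lie to the right of their circle except NOP56 (−2.73) and CHD4 (−1.67) in the hsa-miR-205-5p panel. The circles of SNORA70C, SNORA70F and SNORD18C (left) and SNORA30 (right) are fitted values of probes at background with that precursor.

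Of 18 genes for the core and assembly factors of snoRNA particles, 16 were tested. With hsa-miR-205-5p 3 of the 16 were called lower and 0 higher, beside 7.98% and 4.78% of all genes. Their median was −0.02, beside 0.08 over all genes, and with hsa-miR-214-3p 0 of the 16 were called by limma, beside 2.03% of all genes lower and 1.09% higher. The 3 were NOP56, RUVBL1 (by 1.74), an ATPase of the assembly machinery, and NUFIP1, an assembly factor that neither hsa-miR-205-5p array measured above background and that was at least 1.61-fold higher in the control. The H/ACA pseudouridine synthase gene DKC1 read 0.03 and the C/D methyltransferase gene FBL 0.26, and neither was called. SNU13, whose protein binds the C/D motif, read 0.16 at its main probe while a second probe was called lower by 3.11. Between the precursors, where 11.3% of all genes were lower and 9.18% higher, NOP56, RUVBL1, RUVBL2 and NUFIP1 were lower with hsa-miR-205-5p and the assembly factor gene ZNHIT3 was higher, by 1.02.

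Of 8 genes of Cajal body and maturation factors, 7 had a probe and were tested. With hsa-miR-205-5p 1 of the 7 passed the test, as lower, beside 7.98% of all genes, and the list's medians were −0.16 and −0.24 with the 2 precursors. WRAP53, whose protein brings these RNAs to the Cajal body, was at 0.62 and 0.67 with hsa-miR-205-5p, 1.45 and 1.74 with hsa-miR-214-3p, and 1.63 and 1.69 in the control. It fell by 1.01 ± 0.17 with hsa-miR-205-5p (adjusted p = 0.0187) and read −0.06 with hsa-miR-214-3p. The other 6, among them the coilin gene COIL (0.18 and 0.09), were not called against the control. With hsa-miR-214-3p 0 of the 7 were called by limma, where 2.03% of all genes were lower and 1.09% higher. Between the precursors 1 of the 7 passed the test, beside 11.3% of all genes lower. This was GEMIN2, of the complex that assembles spliceosomal particles, which was lower on the hsa-miR-205-5p arrays. Neither of these arrays measured it well above background, and it was at least 3.49-fold higher with hsa-miR-214-3p (fitted adjusted p = 0.0448).

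The rule for named genes also takes the members of highest mean signal, which were SNORA16A, SNORD3B-1, SCARNA22, SNORA57 and SNORD86. SNORA16A, in SNHG12, lay between 7.77 and 8.40 on all 6 arrays and was called in no comparison. SNORD3B-1, a copy of the C/D RNA that acts in the first cleavages of ribosomal RNA, lay between 7.55 and 8.09, with differences of −0.12 and −0.23 from the control. SNORA57 lay between 5.24 and 6.28 and differed between the precursors by 0.95, short of 2-fold (adjusted p = 0.0107).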

How the data were processed

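RNA of MDA-MB-231 cells was profiled on 6 arrays in 3 groups of 2, taken from the sample labels. The authors deposited Agilent Feature Extraction 11.0 output. Per the file headers and as deposited by the authors, its processed signal is a linear intensity per spot with background removed and no scaling across arrays. A second file of the authors holds log2 values and is quantile normalized, as its sorted columns are identical.

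Control spots and outlier spots (245 to 463 per array) were left out, spots of a probe were averaged, log2 was taken and each array's 75th percentile was subtracted. Of 50599 probes 18468 passed the filter, and 83.3% of these had a symbol through transcript accessions in the RefSeq table (GRCh38.p14), used for names and for which genes contain which, since the array design is on another build. No strand was at hand for the members, so a planned match of strand between member and containing gene was not made. Tests used limma 3.58.1 (lmFit, eBayes) in R 4.3.3 over all 6 arrays, after a run on simulated data. Calls needed a Benjamini-Hochberg adjusted p under 0.05 over all tested probes and a 2-fold change. Plots used matplotlib 3.10.9. Some results for single genes are not reported here or plotted.

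The members, the gene lists and the rule for named genes were chosen with earlier results of these data known. That rule takes SCARNA13, SCARNA8, SNORA70B, the called members (up to 12 per comparison by size for full values), the 5 members of highest mean signal and the genes that contain them. Other called members, and members that share a containing gene, were named after their values were seen. Alternatives were normexp with an offset of 50, quantile normalization, a 75th percentile over probes bright on all 6 arrays, the authors' log2 table, 2 other filters, a 4-array fit, a block for the replicate number, limma's trend, leaving out each array, other thresholds and the methods' t-test. With 2 arrays per group, their number limits the precision. Same-numbered arrays did not deviate together (correlations of 0.008, −0.051 and 0.109).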

Additional observations from a re-analysis of the deposited data

How the results depend on the processing

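No difference of a called member changed sign under the 13 alternatives that refit the values. In many of these it could not. The 4-array fit, the replicate block, limma's trend and a fit without an array of the third group leave the log2 differences of a comparison as they were. In those neither sign nor fold can move, and only the p-values can. The authors' log2 values are quantile normalized, so they and the quantile setting are not separate checks. The other filters, the other thresholds and the t-test were compared by counts of calls. Normexp made the fold of 12 of 23, 6 of 11 and 22 of 37 called members over 1.5 times smaller in the 3 comparisons, and the other 12 refits moved SNORA70D or SNORD18C that far and no other called member. Quantile normalization, the authors' log2 values, the 75th percentile over probes bright on all 6 arrays, the stricter filter and limma's trend with robust spread left the number of called members within 1.5 times of the reported one in each comparison. For hsa-miR-205-5p against the control (23 called), normexp gave 15, no filter on dim probes 10, the 4-array fit 13 and the methods' t-test after Benjamini-Hochberg adjustment 0, against 19 at its unadjusted p. Leaving out 1 array gave 0 to 31. For hsa-miR-214-3p against the control (11 called), no filter gave 0 (17 lower and 3 higher at an unadjusted limma p with the 2-fold limit, which holds for each unadjusted count here), the 4-array fit 0, the methods' t-test with adjustment 0 (13 unadjusted) and the unadjusted limma p 18. Leaving out 1 array gave 0 to 20, where the 20 (14 lower, 6 higher) came without scrambled control replicate 2. For hsa-miR-205-5p against hsa-miR-214-3p (37 called), normexp gave 16, no filter 21, no fold limit 66 (29 lower, 37 higher) and the adjusted t-test 22. Leaving out 1 array gave 7 to 40. Normexp moved the split between the precursors to 14 lower and 2 higher. The cause of these shifts was not tested, other than that fewer arrays leave fewer residual degrees of freedom and that no filter adds probes to the adjustment.

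The replicate number does not pair the samples. With it as a replicate block, 22, 0 and 38 members were called in the 3 comparisons. The 0 stands beside 17 lower at an unadjusted p and beside 0 of all genes called. Among the SNORA70 family, SNORA70, SNORA70B, SNORA70C, SNORA70E and SNORA70G stayed called between the precursors in all 13 alternatives that refit the values. Without a filter the median of all genes moved from 0.08 to 0.38 with hsa-miR-205-5p and from −0.01 to 0.17 with hsa-miR-214-3p, and that of the members from −0.17 to 0.21 and from −0.14 to 0.00. A block for the slide was not run, since all arrays lay on 1 slide. Fits without 1 array take the spread of the array left alone from the other groups.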

Other observations

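Of the 16 members that were well above background on at least 1 array but not on both arrays of a group, 3 were high on hsa-miR-205-5p replicate 2 alone. SNORD114-22 read 1.11 there and between −4.19 and −3.50 on the other 5 arrays. SNORA22 read 1.06 there and between −4.18 and −2.94 elsewhere, and SNORD114-20 read 0.27 and between −4.36 and −3.51. SNORD105 was above background on 3 arrays, 1 in each group. SNORA74B, which did pass the filter, read −3.94 on control replicate 1 and −1.05 on replicate 2, the widest gap between the 2 control arrays among the tested members.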
